A study of Mus musculus with 8 samples.

Results

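Pitx1, Pitx3, Otx1, Otx2 and Gsc are 5 paired-like homeobox genes that were chosen by name among the 36799 genes and other targets of a mouse expression array, with results of the same comparison in view. Their values in EED cKO against control epidermis are therefore given as a description, without a test. Each gene had 1 probe, found through the RefSeq accession that the array design gives for it. The RNA came from the back skin epidermis of C57BL/6 newborn mice (P0), in 4 EED cKO and 4 control samples, each labelled a biological replicate. EED cKO stands for K14-Cre; EED flox/flox, in which the keratin 14 promoter drives Cre in basal epidermal cells, so that Eed is deleted in keratinocytes and the cells that descend from them, while melanocytes, immune cells and any residual dermal cells keep the gene. The labels do not detail the alleles that the control mice carried. From each mouse 100 ng of total RNA was labeled and co-hybridized with Universal Mouse Reference RNA, a purchased mix common to all 8 arrays. In either genotype, Cy3 labeled the sample of replicates 1 and 3 and Cy5 that of replicates 2 and 4, the reference taking the opposite dye. Values are log2 ratios of sample over reference, so a difference of 1 between genotypes is a 2-fold change, and the number of arrays limits their precision.

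Paired-like homeobox genes encode transcription factors that set the identity of tissues in the embryo. Pitx1 acts in the hindlimb bud, the pituitary and the oral ectoderm, Pitx3 in midbrain dopamine neurons and the lens, Otx1 and Otx2 in the forebrain, midbrain and sense organs, and Gsc (goosecoid) in the gastrula organizer and later in craniofacial development. The Pitx, Otx and Gsc proteins share a lysine in the recognition helix of the homeodomain and favor the DNA sequence TAATCC. Eed is a core subunit of Polycomb repressive complex 2 (PRC2), which trimethylates histone H3 at lysine 27 and keeps many developmental transcription factor genes, often ones with CpG-rich promoters, silent outside their own tissue.

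The sequences just before the transcription start are shown for the members with a RefSeq promoter, since PRC2 is known to act at CpG-rich starts. The table of promoters used here, on GRCm38.p6, covers 3 of the 5 genes, Pitx3, Otx2 and Gsc. All 3 lie on the minus strand, and the 250 bases are written 5′ to 3′ with each CpG in capitals. The Gsc stretch is at chr12:104473237-104473486, that of the outermost of the 4 Otx2 starts at chr14:48667645-48667894, and that of Pitx3 at chr19:46148326-46148575.
Gsc: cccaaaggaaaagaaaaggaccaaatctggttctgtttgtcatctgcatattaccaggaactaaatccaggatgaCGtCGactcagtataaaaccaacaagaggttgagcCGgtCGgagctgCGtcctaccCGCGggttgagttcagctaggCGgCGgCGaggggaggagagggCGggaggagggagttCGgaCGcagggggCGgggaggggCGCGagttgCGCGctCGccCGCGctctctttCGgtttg
Otx2: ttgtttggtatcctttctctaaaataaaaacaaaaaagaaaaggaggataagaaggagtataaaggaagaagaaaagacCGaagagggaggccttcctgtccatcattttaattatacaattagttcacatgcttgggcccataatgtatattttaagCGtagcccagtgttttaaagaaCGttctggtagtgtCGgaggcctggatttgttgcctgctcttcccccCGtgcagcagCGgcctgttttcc
Pitx3: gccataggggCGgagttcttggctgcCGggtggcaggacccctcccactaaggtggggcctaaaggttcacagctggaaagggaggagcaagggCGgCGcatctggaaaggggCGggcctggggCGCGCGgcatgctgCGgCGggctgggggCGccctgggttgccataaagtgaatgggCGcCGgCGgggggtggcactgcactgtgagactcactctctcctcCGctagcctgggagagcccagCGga

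The stretch upstream of Gsc held 22 CpG, that of Pitx3 held 16, and that of the outermost Otx2 start held 6. Over the full 300-base windows, which reach 50 bases past the start, Gsc had 25 CpG at an observed over expected ratio of 0.934, where the median protein-coding promoter had 13. With CpG-rich taken as a ratio above 0.6 and a GC content above 50%, the Gsc window and that of the third Otx2 start were CpG-rich, and those of Pitx3 and the other 3 Otx2 starts were not. Of 21263 protein-coding promoters of the same length, 44.9% were CpG-rich. The promoter of Pitx3 thus held more CpG than that of the outermost Otx2 start. TAATCC or its reverse complement GGATTA, the only motif searched, was found in 1 of the 6 member windows, that of the third Otx2 start, 211 bases before the start at chr14:48665303-48665332 on the minus strand, where capitals mark it.
Otx2 site: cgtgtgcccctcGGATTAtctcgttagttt

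The same 6 letters were present in 6.42% of protein-coding promoters and in 2 of the 18 promoters of other paired-like homeobox genes. For these other genes, paired-like stands here for the whole paired (PRD) class, Pax genes included. A match of this kind is a description of the letters and not a binding site.

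Before the members, the arrays were checked for the deletion and the tissue. The single Eed probe averaged -1.80 ± 0.17 (SD, n = 4) on EED cKO arrays against -0.35 ± 0.13 (SD, n = 4) on control arrays. Its log2 fold change was thus -1.46 (limma adjusted p = 2.14e-05, standard error 0.09), and the genotypes did not overlap. All 7 keratinocyte markers, Krt14 and Krt5 among them, were well above background on all 8 arrays, and 0 passed in limma, at an adjusted or an unadjusted p below 0.05. The arrays lay on 1 slide and were read in 1 scan, EED cKO in 1 row of the slide and control in the other, so that slide row and genotype cannot be told apart. In the sample channel 51.5% to 65.5% of probes were well above background per array. Of 23139 genes and other targets tested, 255 (1.1%) were higher and 23 (0.0994%) were lower in EED cKO with a 2-fold or larger difference and a limma adjusted p below 0.05, which is called changed here, and the median log2 fold change was 0.02.

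Pitx1, Gsc and Otx2 were higher in EED cKO epidermis on every array than on any control array, whereas Pitx3 and Otx1 overlapped between the genotypes. On the scale used here, with an offset of 50 in the background correction, Pitx1 was 13.9-fold higher, Gsc at least 3.17-fold and Otx2 2.12-fold. The Gsc bound holds for loess normalization only, as median centring gave Gsc a log2 fold change of 1.27. The Otx2 fold rests on control spots of which 1 was well above background. With the log ratio of the scanner software the order was another, with log2 fold changes of 5.18 for Gsc, 3.82 for Pitx1 and 3.47 for Otx2. Of the 5 members 4 passed the filter, which asks that 3 or more of a genotype's 4 arrays show the sample channel well above background, and Otx1 did not. Gsc and Otx2 passed it only through their EED cKO arrays. Among all targets tested 1.13% were at least 2-fold higher whatever the p, and 17.2% did not overlap between the genotypes, 9.65% being higher and 7.52% lower. Since the members were chosen on this contrast, their own 3 of 4 is not read against these shares. In RNA of a whole tissue, more cells of a type and more RNA per cell cannot be told apart.

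Pitx1, the hindlimb and pituitary factor, gave log2 ratios of 4.01, 4.89, 4.01 and 4.39 in EED cKO replicates 1 to 4. In control replicates 1 to 4 it gave 0.04, 0.94, 0.78 and 0.36. All EED cKO arrays thus lay far above the highest control array, replicate 2. The means were 4.32 ± 0.42 (SD, n = 4) and 0.53 ± 0.41 (SD, n = 4), and the fitted log2 fold change was 3.79 (standard error 0.19), second in size of all 23139 targets tested on this scale. The probe was well above background on all 8 arrays, controls included, so that Pitx1 RNA was measured and not only bounded in control epidermis. The spots gave median intensities of 1158.5, 4091.5, 1074 and 1422 in EED cKO replicates 1 to 4, against 47, 99, 101 and 52.5 in control, over local backgrounds of 20 to 27. The log2 difference was 3.60 on the arrays with the sample in Cy3 and 3.99 on those with it in Cy5. Within replicate numbers it was 3.96, 3.95, 3.23 and 4.03, so every pair showed it at a similar size.

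Otx2, a forebrain and midbrain factor, gave 0.92, 1.31, 0.92 and 0.95 in EED cKO replicates 1 to 4 and -0.08, 0.05, 0.04 and -0.22 in control. Replicates 1, 3 and 4 of EED cKO lay close together and replicate 2 was higher, while the control arrays scattered around 0. The means were 1.03 ± 0.19 (SD, n = 4) and -0.05 ± 0.13 (SD, n = 4), a log2 fold change of 1.08 (standard error 0.11). All 4 EED cKO arrays, but only 1 control array, replicate 2, showed the probe well above background. The difference was 0.95 on Cy3 arrays and 1.22 on Cy5 arrays. Its size depended on the processing, from 0.86 with median centring of each array to 3.47 with the log ratio of the scanner software, and every setting run kept its direction.

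Gsc, the organizer factor, gave 1.20, 2.09, 1.43 and 1.94 in EED cKO replicates 1 to 4. The control arrays gave -0.06, -0.07, -0.06 and -0.12. All 4 control arrays were not well above background, so the control values only mark the floor of the measurement, and their narrow spread is that of dim spots. The means were 1.67 ± 0.42 (SD, n = 4) and -0.08 ± 0.03 (SD, n = 4), with a fitted log2 fold change of 1.74 (standard error 0.14). Set on each control array against the lowest signal that counted as well above background, or the spot's own where that was higher, the EED cKO mean of Gsc was higher by at least 3.17-fold, a bound from the sample channel after loess and Aquantile normalization. The difference was smaller on Cy3 arrays (1.38) than on Cy5 arrays (2.11), with 2 arrays of each genotype behind each value. As for Otx2, the size depended on the processing, from 1.27 with median centring to 5.18 with the scanner software's log ratio. The bound of 3.17-fold is therefore not one for every processing.

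Pitx3, known from dopamine neurons and the lens, gave 0.18, 0.10, 0.18 and 0.49 in EED cKO replicates 1 to 4. Control replicates gave 0.03, 0.25, 0.02 and 0.21. The genotypes overlapped, and only replicate 4 of EED cKO lay above all control arrays. The means were 0.24 ± 0.17 (SD, n = 4) and 0.13 ± 0.12 (SD, n = 4), a log2 fold change of 0.11 (standard error 0.09), although the probe was well above background on all 8 arrays. Otx1, the paralog of Otx2, gave 0.06, 0.18, 0.06 and -0.01 in EED cKO and 0.05, -0.21, 0.23 and -0.08 in control. Its probe was well above background on 1 EED cKO array, replicate 2, and on 0 control arrays, so that its values lay at the floor in both genotypes. The log2 difference of Otx1 was 0.07 (standard error 0.09). No bound on its fold is given, since the spots of both genotypes lay at the floor. The paralog pairs therefore differed in what the arrays could measure: Pitx3 was detected in both genotypes and Otx1 in neither on most arrays. The plot of the 5 genes by array shows each value with its dye and flag.

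**Figure D1:**
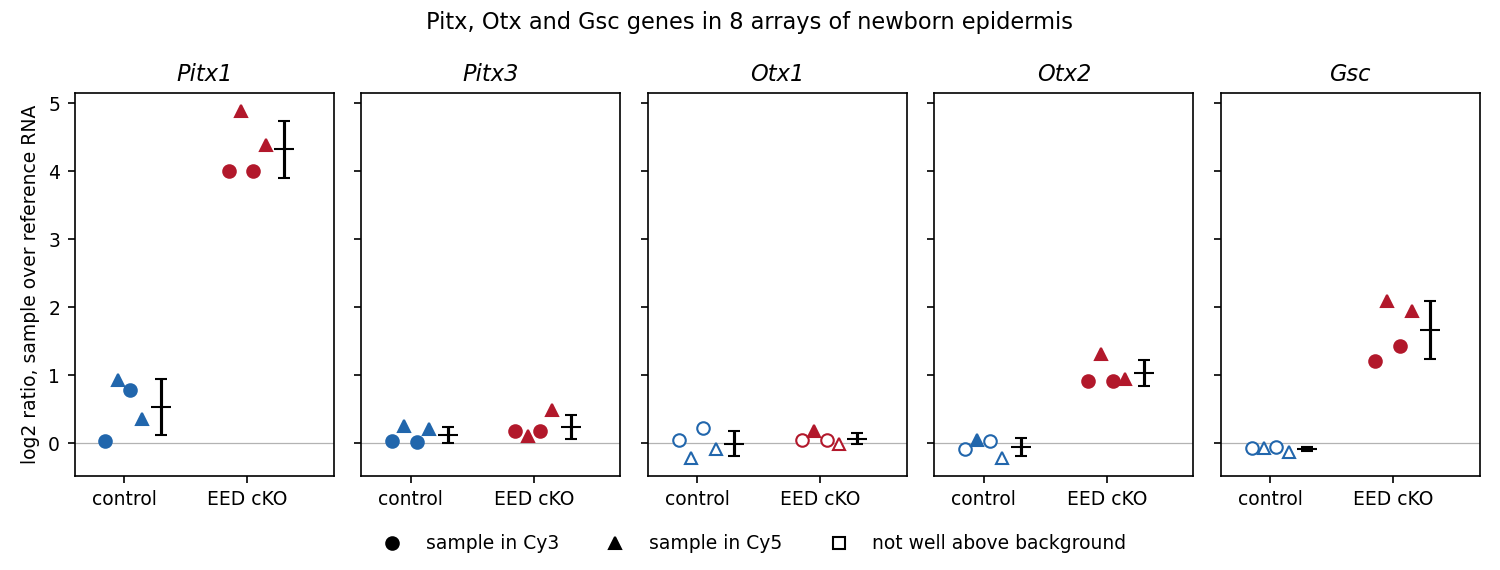
Log2 ratio of sample over reference RNA (vertical axis) for Pitx1, Pitx3, Otx1, Otx2 and Gsc on 4 control and 4 EED cKO arrays. Circles are arrays with the sample in Cy3 and triangles arrays with it in Cy5, open symbols were not well above background in the sample channel, and bars give mean ± SD. The 4 EED cKO arrays sit between 4.01 and 4.89 for Pitx1, between 0.92 and 1.31 for Otx2 and between 1.20 and 2.09 for Gsc, above all control arrays of the same gene.

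The same reference RNA was on every array, and its channel is the denominator of each log2 ratio, so that the values of this channel are given as a description without a test. For Pitx1 this channel was higher on the EED cKO arrays as well. Its log2 signal after loess and Aquantile normalization was 6.96, 7.25, 6.77 and 6.73 on EED cKO arrays 1 to 4 and 6.30, 6.18, 6.31 and 6.21 on control arrays. The groups did not overlap, and the mean was 1.60-fold higher on EED cKO arrays. Of 23139 targets, 3.51% did not overlap in the reference channel in either direction and 1.36% were higher on EED cKO arrays without overlap, and 0.221% of those measured were at least 1.5-fold higher on EED cKO arrays. The raw medians of the Pitx1 spot in the reference channel were 112, 189, 138 and 124.5 on EED cKO arrays and 51, 72, 63 and 76.5 on control arrays. The difference was thus present before normalization. As the ratio divides by this channel, the sample channel of Pitx1 alone gave a larger change, 4.47 on the log2 scale or 22.2-fold. Why a constant RNA read higher on these spots was not tested.

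For Otx2, Gsc, Pitx3 and Otx1 the reference channel overlapped between the genotypes. Its means differed by -0.10, -0.03, -0.02 and -0.02 on the log2 scale in that order, EED cKO minus control. The sample channel alone gave 1.98-fold for Otx2, close to the 2.12-fold of the ratio. For Gsc, whose reference spot was well above background on 4 of the 8 arrays, all of them EED cKO, it gave 3.27-fold.

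**Figure D2:**
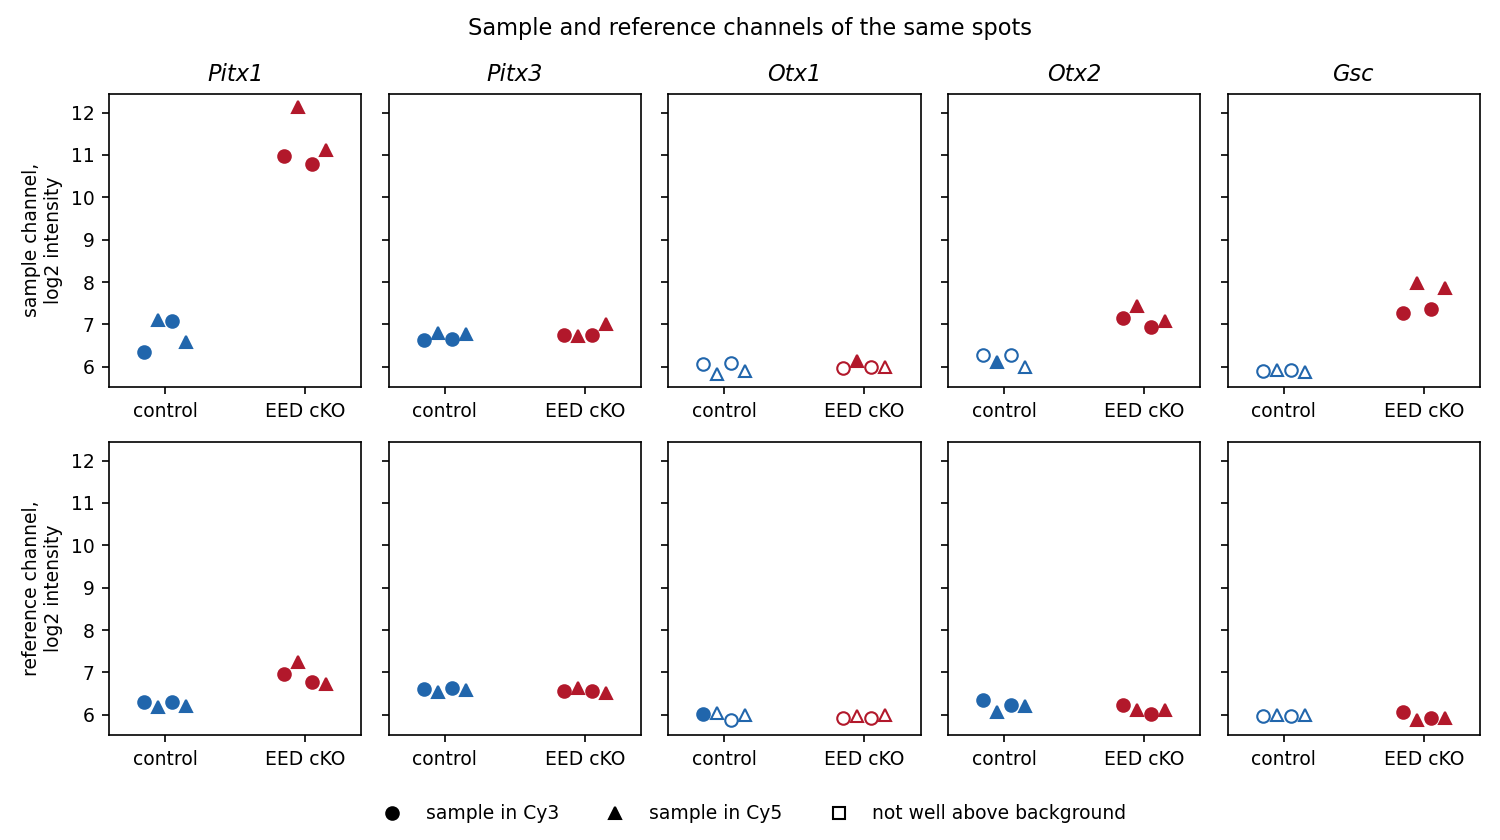
Log2 intensity of the sample channel (top) and of the reference channel (bottom) of the same spots on control and EED cKO arrays, after loess and Aquantile normalization. Circles are arrays with the sample in Cy3, triangles with it in Cy5, and open symbols were not well above background in the channel shown. The reference channel of Pitx1 is 1.60-fold higher on EED cKO arrays without overlap, while that of the other 4 genes overlaps.

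Across the 8 arrays the 3 members that differed by genotype ran together, with Pearson correlations of 0.99 for Pitx1 with Otx2, 0.977 for Pitx1 with Gsc and 0.973 for Otx2 with Gsc. Pitx3 correlated with them at 0.298 to 0.428. These values describe 8 arrays that fall into 2 genotypes, so the genotype difference carries most of them, and 4 arrays a genotype are too few for a value within one. Of 14945 other genes with a symbol, 511 correlated above 0.9 with Pitx1, 474 with Otx2, 492 with Gsc and 9 with Pitx3. For Pitx1, Otx2 and Gsc the nearest 3, named next, are thus picked from many close to them. By the same measure over genes with a symbol, the nearest to Pitx1 were Nmu (0.996), which encodes the peptide neuromedin U, Ppp1r3d (0.995), a glycogen-targeting phosphatase subunit, and Fxyd4 (0.995), a regulator of sodium transport. Their log2 fold changes were 3.18, 0.68 and 3.33, so a like pattern did not mean a like size. Nearest to Otx2 were Ehf (0.995), an epithelial ETS factor with a log2 fold change of 1.62, Ccdc69 (0.992) and Atp13a5 (0.992). Nearest to Gsc were Wfdc18 (0.992), with a log2 fold change of 2.28, Gml (0.991) and Prps1 (0.99), a nucleotide synthesis enzyme. For Pitx3 the nearest were Echdc2 (0.978), D4Ertd617e (0.967) and Spata31d1a (0.946), with log2 fold changes of 0.11, 0.07 and 0.02.

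Several other paired-like homeobox genes were also higher in EED cKO, the name standing here for the whole PRD class with Pax3, Pax4, Pax6 and Pax7. Of 29 on the array outside the 5 members, 14 were tested, 7 had an adjusted p below 0.05 and all 7 were higher, where 11.8% of all targets tested were higher at that level and 9.95% lower. At the 2-fold limit 2 were changed, both higher, Sebox being described here. The median log2 fold change of the 14 was 0.29, against 0.02 over all targets tested. Of the 7, 3 (Dmbx1 and Pax6 among them) were well above background on 0 control arrays and passed the filter only through EED cKO.

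Sebox, a homeobox gene known from skin, brain and oocytes, was detected on all 8 arrays and rose from 0.78 ± 0.25 (SD, n = 4) to 1.94 ± 0.37 (SD, n = 4), or 1.16 on the log2 scale (limma adjusted p = 0.00318, standard error 0.18). Without EED cKO replicate 2 it was 0.97, below the 2-fold limit, and with the scanner software's log ratio its adjusted p was 0.0510. Pax3, a factor of neural crest, melanocytes and muscle progenitors, rose by 0.89 (standard error 0.11, limma adjusted p = 0.000909), and its other probe gave 0.68. The craniofacial factor Alx1 rose by 0.78 (standard error 0.12, limma adjusted p = 0.0027). Dmbx1, of the midbrain and diencephalon, had an adjusted p of 0.0132 (limma) and was at least 1.27-fold higher after loess. With median centring its log2 fold change was 0.33 and its limma adjusted p was 0.0612. The eye factor Pax6 was at least 1.23-fold higher after loess (limma adjusted p = 0.00682), with a log2 fold change of 0.29 after median centring. Its other probe was not well above background on any array. As for Gsc, such bounds, here and below, hold for loess normalization only.

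The 7 tested genes that did not pass lay closer to 0. Vsx1, a retinal factor, had a log2 fold change of -0.34 (limma adjusted p = 0.0508). The limb mesenchyme genes Prrx1 and Prrx2 gave 0.09 and 0.22, the adjusted p being 0.543 and 0.149. Alx4 gave 0.05, Uncx 0.11 and Hesx1 0.01, with adjusted p values of 0.752, 0.454 and 0.920. Crx, the retinal relative of the Otx genes, and Gsc2, the paralog of Gsc, were on the array but below the filter.

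**Figure D3:**
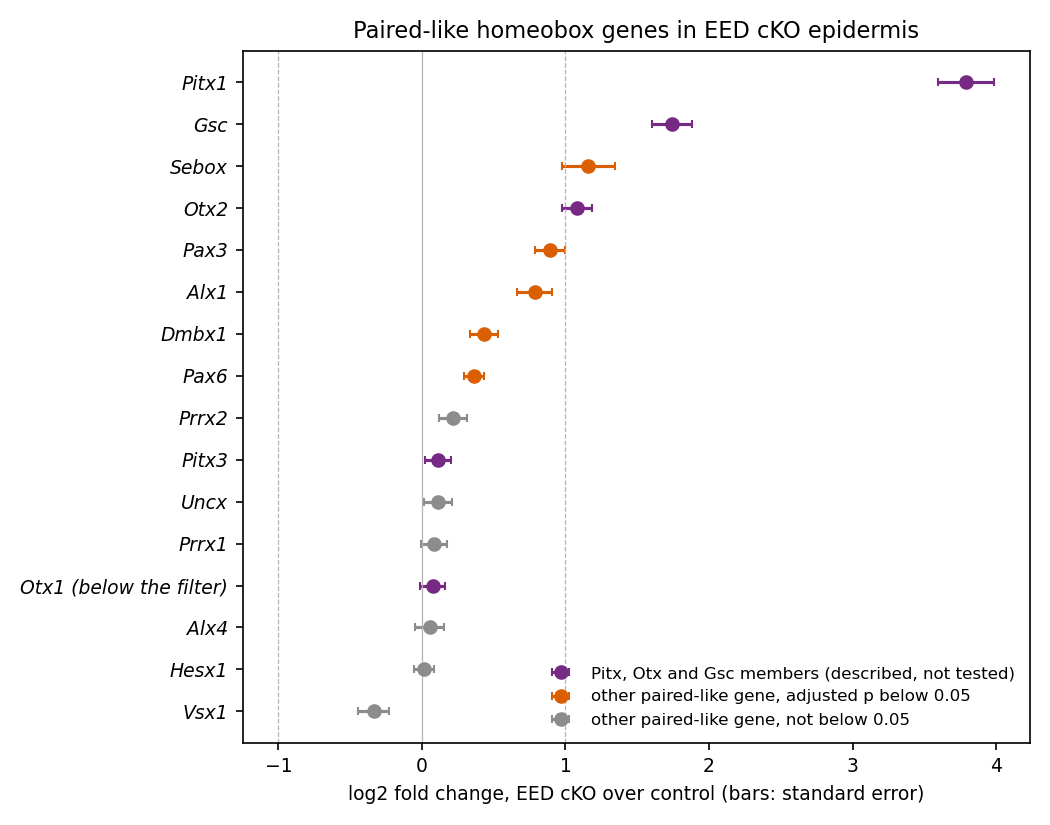
Log2 fold change of EED cKO over control (horizontal axis, bars give the standard error) for the 5 members and 11 of the 14 other paired-like homeobox genes tested. Members are described and not tested, and dashed lines mark a 2-fold change. Pitx1 at 3.79 and Gsc at 1.74 lie to the right of all others, Sebox (1.16) beside Otx2 (1.08), and Vsx1 at -0.34 lies lowest.

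Genes next to the members on the chromosome were looked at in the same fit. Among the 3 RefSeq genes on each side of each member, 30 in all, 12 were on the array, 9 were tested and 0 were changed, where 1.2% of all targets tested were changed in either direction, so a count of 0 is not a result about these neighbors. Pitx1 lies at chr13:55825044-55836190, and its tested neighbors were Pcbd2, with a log2 fold change of -0.01 (limma adjusted p = 0.919), and the histone variant gene Macroh2a1, with -0.15 (0.198). Near Otx2 (chr14:48656781-48667644) Tmem260 gave -0.19 (limma adjusted p = 0.170), and near Otx1 (chr11:21994764-22001651) Ehbp1 gave 0.10 (0.364). Near Gsc (chr12:104471209-104473236) the protease inhibitor gene Serpina3n gave 0.22 (limma adjusted p = 0.314). Dicer1, which encodes the microRNA-processing enzyme and lies on the other side of Gsc, was lower, at -0.43 on the log2 scale (limma adjusted p = 0.00529, standard error 0.08).

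Beside Pitx3 (chr19:46135281-46148325) the nucleolar gene Nolc1 gave -0.38 and the coactivator gene Pprc1 -0.23 (limma adjusted p = 0.0411 and 0.0418). Neither value stayed below 0.05 without the dye term, where they were 0.0694 and 0.120. Nfkb2 gave -0.10 (limma adjusted p = 0.299). Elovl3 overlaps Pitx3 in the annotation and was below the filter. In all, 3 of the 9 tested neighbors were lower and 0 higher at an adjusted p below 0.05, where 9.95% of all targets tested were lower. At an unadjusted p below 0.05 limma gave the same count of neighbors, where 3783 of all 23139 targets tested were lower. The methods' t-test gave 0 changed.

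Genes known to act with or downstream of the members in their own tissues were changed in 0 of 38 tested (77 listed, all on the array) at the 2-fold limit. At an adjusted p below 0.05 and any fold 16 were higher and 1 was lower. Of all targets tested 11.8% were higher and 9.95% lower at that level. The median log2 fold change of the 38 was 0.22. Among the 16, genes such as Isl1, Hoxd13, Lmx1a, Foxa1 and Fezf1 passed the filter only through EED cKO, which favors a higher value. The direction of these genes, and their part in the median, is thus partly set by the filter. With the methods' t-test after Benjamini-Hochberg adjustment 5 were higher and 0 lower, and no share over all targets was taken for that test. At an unadjusted p below 0.05 limma gave 22 higher and 1 lower, where 4514 of all 23139 targets tested were higher and 3783 lower. Again 0 were at 2-fold, and the methods' t-test also put 0 past the 2-fold limit. With the scanner software's log ratio 10 were changed to higher and 1 to lower, where 2.56% of all targets were changed to higher. In the hindlimb and limb bud list 5 of 10 were higher and 1 was lower. Isl1, a hindlimb and Merkel cell factor, rose by 0.83 (standard error 0.07, limma adjusted p = 0.000138), Hoxc11 by 0.63 (0.00682, but 0.0612 without the dye term) and Hoxd13, with control arrays at background, by at least 1.30-fold (0.00216). Shh, the limb and hair follicle signal, was lower, at -0.79 on the log2 scale (limma adjusted p = 0.00369, standard error 0.13). For 1 of the 5 higher genes, which is not named, other probes gave the opposite direction. The hindlimb gene Tbx4 was below the filter.

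In the pituitary list 2 of 4 were higher by limma, Lhx3 by 0.72 (limma adjusted p = 0.00683), a factor of the pituitary and motor neurons, and Pomc, the hormone precursor, by 0.42 (0.0125). Neither held in every setting, as the adjusted p of Lhx3 was 0.0533 without the dye term and 0.0621 with the scanner software's log ratio, and that of Pomc was 0.0679 with median centring. The hormone genes Gh, Prl, Cga and Tshb were below the filter. In the dopamine neuron and lens list 4 of 12 were higher. At the level of these counts, an adjusted p below 0.05 and any fold, 11.8% of all targets tested were higher. Nr4a2, a factor of dopamine neurons that partners with Pitx3, rose by 0.87 (standard error 0.07, limma adjusted p = 0.000122), and its other probe gave 0.67. Lmx1a, from the same lineage, had its control arrays at background and was at least 1.64-fold higher (limma adjusted p = 0.00121). Foxa1, well above background on 1 control array, and Th, the gene of the dopamine synthesis enzyme tyrosine hydroxylase, had log2 fold changes of 0.29 and 0.23 (limma adjusted p = 0.0394 and 0.0305). Without the dye term the adjusted p was 0.211 for Foxa1 and 0.160 for Th, with median centring 0.161 and 0.727, and with 1 array left out most fits gave values above 0.05.

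In the head organizer and anterior neural list 5 of 8 were higher, at less than 2-fold. The share of all targets tested that were higher at an adjusted p below 0.05 was 11.8%. The Nodal pathway genes Lefty1 and Nodal rose by 0.59 and 0.45 (limma adjusted p = 0.00118 and 0.00476), and Nog, a BMP antagonist, by 0.42 (0.0122, but 0.285 with median centring). Fezf1, a forebrain factor, was at least 1.33-fold higher (limma adjusted p = 0.0110), with control arrays at background. In the retina and pigment epithelium list 0 of 4 passed in limma. At an unadjusted p below 0.05 there were 3, all higher, where 4514 of all 23139 targets tested were higher. A gene listed for another tissue can have its own role in skin, as Shh and Isl1 do.

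Markers of some other cell types moved with genotype beside these genes. All 6 Merkel cell markers, Atoh1, Sox2, Isl1, Krt8, Krt18 and Krt20, were higher at an adjusted p below 0.05. Of all targets tested 11.8% were higher at that level. Atoh1, Sox2 and Isl1 passed the filter only through EED cKO, Sox2 being well above background on 0 control arrays. The summed sample-channel signal of the 6 ran from 1955 to 2380 in EED cKO and from 1226 to 1602 in control. Of the endothelial markers 2 of 5 were tested and both were higher (summed signal 4584 to 6051 against 2721 to 4161), with the defining markers Cdh5 and Tek not well above background on any array. For immune markers 2 of 5 tested were higher (3875 to 4556 against 3341 to 3680). For adipocyte markers 2 of 3 were higher, but their summed signal overlapped between the genotypes (388.9 to 565 against 280.5 to 407.1). Adipoq was not well above background on any array. Dermal fibroblast markers overlapped (27520 to 28970 against 26860 to 37710, 1 of 7 higher). Melanocyte markers overlapped as well (23160 to 28700 against 19950 to 29490, 1 of 6 lower). Skeletal muscle, Schwann cell and neuron, and erythroid markers also overlapped, with 0 called by limma at an adjusted p below 0.05. At an unadjusted p below 0.05 limma gave 1 of 2, 2 of 4 and 1 of 2 tested, all higher. Of all 23139 targets tested 4514 were higher at that level. Myf5, Myh3, Actn2 and Nefl were not well above background on any array. The part of these markers' cells in the values of Pitx1, Otx2 and Gsc was not tested.

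The sizes of the member differences were compared across processing choices, as the plot of fold changes under other processing shows. Pitx1 ran from 3.26 with median centring to 4.47 with the sample channel alone and was 3.64 to 3.98 with any 1 array left out. Otx2 ran from 0.98 to 1.13 and Gsc from 1.64 to 1.86 with 1 array left out. Pitx3 ran from 0.04 to 0.20 and Otx1 from 0.0036 to 0.14. The fold changes of Otx2 and Gsc hold for signals with the offset of 50 added, and the scanner software's log ratio, which differs in several steps, gave 11.1-fold and 36.4-fold. As the control spots of Gsc lay at background on all 4 arrays and those of Otx2 on 3, the true size of either is not determined by these arrays. For Pitx1, with all 8 spots above background, both scales gave similar folds of 13.9 and 14.1.

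**Figure D4:**
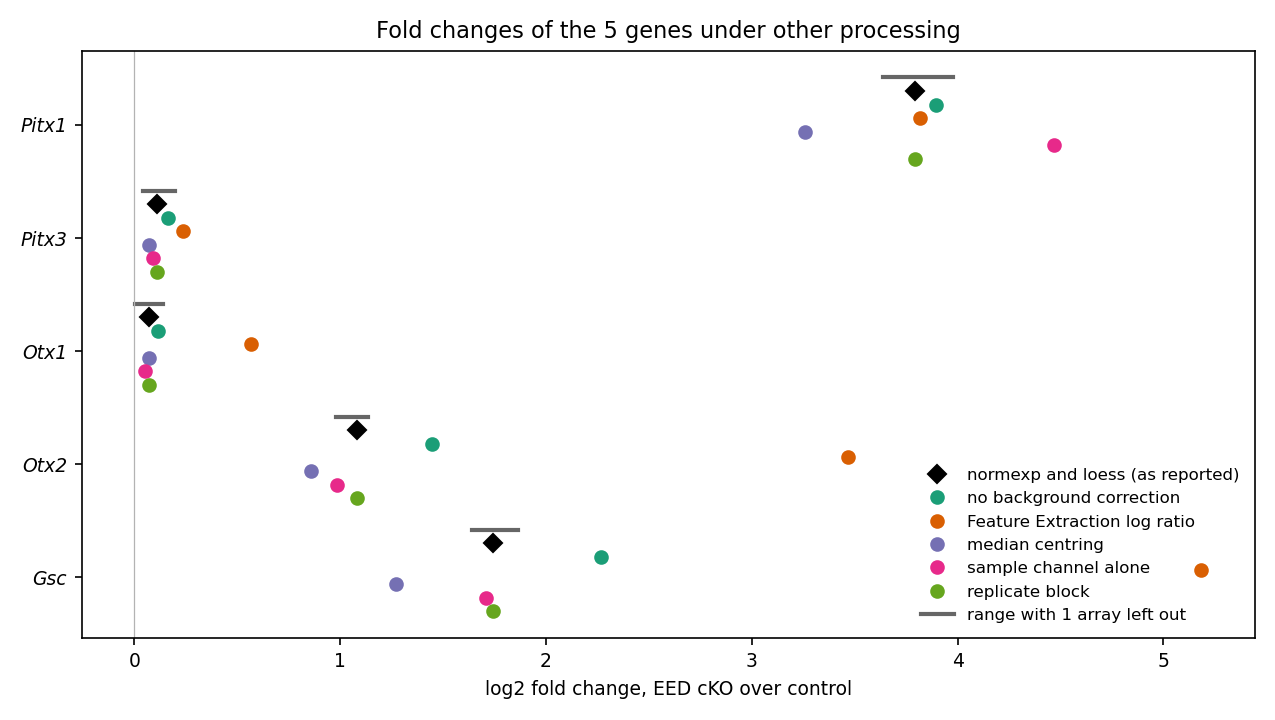
Log2 fold change of EED cKO over control (horizontal axis) of the 5 members under the reported processing (diamonds) and under other settings (circles), with a line for the range when 1 array is left out. Pitx1 stays between 3.26 and 4.47, whereas Otx2 and Gsc, whose control spots lie at or near background, reach 3.47 and 5.18 with the scanner software's log ratio.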

How the data were processed

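RNA of 4 EED cKO and 4 control P0 epidermis samples was measured on 8 two-color Agilent arrays. The authors scanned the arrays and deposited the output of Feature Extraction 12.0.1.1, per the labels, with spot and background intensity per channel, without normalization, and flags for spots above background. The deposited files also hold a log10 ratio from the software's background-subtracted, dye-normalized signals. A table of log2 ratios deposited by the authors matched these ratios within 0.001, which shows it to be sample over reference and not centred.

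Median spot intensities were background-corrected (normexp, offset 50), control and outlier spots were left out, and each array was normalized by loess, with swapped arrays turned. Probes were named by RefSeq accession on GRCm38.p6 (28026 of 29796 matched), and a gene was represented by its brightest probe. Targets whose sample channel was well above background on 3 or more of the 4 arrays in either genotype were tested with limma 3.58.1 in R 4.3.3 (genotype plus dye) and Benjamini-Hochberg adjustment over all 23139, with 19 missing values left out and not imputed. In simulations of the comparison of 4 EED cKO with 4 control arrays, with a 3-fold difference put into 200 of 23139 genes, 198 and 199 were recovered. The permutation test planned for the reference channel is not reported, since the ratio that chose the members divides by it. Bounds and channel values used Aquantile normalization after loess, and the balanced dye swaps limit dye bias in them. The bounds hold for that processing only.

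The members and gene lists were chosen with earlier results of these data known. Named genes are the members, paired-like genes tested, tested neighbors, up to 4 genes per partner list with an adjusted p below 0.05 by size, and the 3 genes most correlated with each tested member. Tbx4, Gh, Prl, Cga, Tshb, Elovl3, Crx and Gsc2, all below the filter, were named after their flags were seen, as were the Merkel markers. Same-numbered arrays deviated together across genes (correlations 0.489, 0.679, 0.327 and 0.364), and the number also marks slide column and dye. The labels do not say what it stands for. Some genes that this rule takes are counted in their lists but not reported here. Alternatives are given in the closing section.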

Additional observations from a re-analysis of the deposited data

Results flagged for a closer look

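Within the EED cKO arrays, the log2 ratio of Otx2 in replicate 2 (1.31) stood apart from the others, which lay between 0.92 and 0.95, and its gap to the nearest was 0.932 of the range of the group. Within the control arrays, the value of Gsc in replicate 4 (-0.12) stood apart from the other 3 by 0.878 of the range, with all 4 spots not well above background. Chance marks about 1 in 20 groups in this way, and 10 groups were looked at.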

How the results depend on the processing

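Leaving out the dye term, the replicate block, Aquantile normalization and a median over probes gave each member its main value, so these could not change a direction. Pitx3 and Otx1 overlapped between the genotypes, and the Otx1 difference was -0.08 on Cy3 arrays and 0.23 on Cy5 arrays. A kept sign therefore says little for either. In the other alternatives run the members kept the sign of their difference. Their size moved by more than the spread between arrays for Pitx1 (3.26 with median centring, 4.47 with the sample channel alone, which was chosen after seeing the data), for Otx2 (1.45 without background correction, 3.47 with the log ratio of Feature Extraction or the deposited table, 0.86 with median centring), for Gsc (2.27, 5.18 and 1.27 in the same order) and for Otx1 (0.57 with the log ratio or the table). The 278 changed targets became 699 with the Feature Extraction log ratio, 698 with the deposited table, 174 with the methods' t-test after Benjamini-Hochberg adjustment (275 before it) and 5030 with no fold limit, and 256 to 318 with 1 array left out. The share of them that was higher fell from 91.7% to 73.6% with median centring. The 2 changed paired-like genes outside the members became 5 with the log ratio or the table, 1 with median centring, 1 with the methods' t-test after adjustment, 7 with no fold limit and 1 to 2 with 1 array left out, 1 being without EED cKO replicate 2. The 7 of them with an adjusted p below 0.05 became 3 with that t-test and 7 to 8 with 1 array left out. The 0 changed partner and target genes became 3 without background correction and 11 with the log ratio or the table. The neighbors stayed at 0 changed in every setting run. The causes were not tested. The replicate block gave 279 changed targets and changed no count named here by over 1.5 times. The mean spot signal was not run, since the files used here hold medians. Signal over background limits Otx1 in both genotypes. In control it limits Gsc, Dmbx1, Pax6, Hoxd13, Lmx1a, Fezf1 and Sox2 on all arrays and Otx2 on most.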
